A study of Arabidopsis thaliana with 8 samples.

Results

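The genes described here are abundant transcripts of the Arabidopsis root that took almost the same share of the library with and without mebendazole (MBZ). They were chosen from the deposited counts by 2 limits. A gene had to reach a CPM of 200 in each of the 8 libraries, CPM being its count in every 1000000 counts of the library. The log2 ratio of its mean CPM in MBZ to its mean CPM in DMSO libraries had to lie within 0.05 of 0, which runs from 3.41% lower to 3.53% higher. The limits were met by 106 of the 33602 genes in the table. Of the 656 genes above the level limit, 243 were more than 0.05 higher and 307 more than 0.05 lower. Because the contrast of MBZ with DMSO chose the 106 genes, their own differences and calls between the groups are given as a description, and no test is drawn from them.

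RNA came from roots of Col-0 seedlings 14 days old, Col-0 being the common laboratory ecotype of Arabidopsis. One group of 4 libraries came from seedlings moved to plates with 10 µM MBZ, an anthelmintic of the benzimidazole group whose target in worms is tubulin. The other 4 came from seedlings moved to plates with the solvent dimethyl sulfoxide (DMSO) alone. Roots of both groups were taken after 4 h, and all seedlings had been on DMSO plates before. The labels name no transgene or mutation. Column names of the MBZ libraries in the deposited tables carry the letters SM and not MBZ, so the group of each library rests on its title and treatment label. Nothing in the labels says that the 4 samples of a group came from separate cultures, so p-values measure only the spread between these libraries, which may be technical.

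Cells keep the transcripts of core machinery at high levels. Translation factors, ribosomal proteins, coat proteins of vesicles, enzymes of carbon and methyl metabolism and the cytoskeleton belong to it. Such genes are often called housekeeping genes, and some serve as references in quantitative RT-PCR, where a gene of unchanged level is needed to scale the others. CPM is a share of one library and not a number of transcripts per cell. In these bulk samples, fewer cells of a type and less RNA per cell cannot be told apart.

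Total counts ran from 39807931 to 54818801 in MBZ and from 38042437 to 53588168 in DMSO libraries. All 7 root markers examined passed 1 CPM in all 8 libraries. Their summed level was 8774 to 8791 CPM in MBZ and 14252 to 14419 CPM in DMSO libraries. Most of the sum came from PYK10, a root beta-glucosidase, with 8511 to 8529.5 CPM in MBZ and 13980 to 14143 CPM in DMSO libraries. CASP1, SHR, COBL9 and WER were also lower in every MBZ library than in any DMSO library. SCR was higher, with 43.6 to 46.7 CPM in MBZ and 37.1 to 40.1 CPM in DMSO libraries, and PLT1 overlapped. Of the 8 shoot markers 3 passed 1 CPM in all libraries, 2 had libraries listed at 0, and together they summed to 31.4 to 33.6 CPM in MBZ and 73.3 to 76.9 CPM in DMSO libraries. The part of either marker list in the results below was not tested. The edgeR quasi-likelihood test, a count model fitted across all genes with Benjamini-Hochberg adjustment, called 66.5% of the 20867 genes tested and 88.3% of the 656 abundant genes at an adjusted p of 0.05. Of the 656, 41.3% were called higher and 47.0% lower in MBZ.

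The constant genes were spread over the lower part of the abundant range. Their mean level ran from 205 CPM to 1642 CPM with a median of 283 CPM, and 4 of them passed 1000 CPM. A log2 ratio within the limit was found for 59 of the 245 abundant genes between 200 and 300 CPM (24.1%). It was found for 30 of 227 between 300 and 500 CPM (13.2%), for 13 of 132 between 500 and 1000 CPM (9.85%) and for 4 of 52 above that (7.69%). Across all genes tested, whatever their level, 15.2% had a ratio within the limit, against 16.2% of the abundant genes. Being this close to 0 was therefore about as frequent among abundant genes as among all genes. Together the 106 genes took 3.98% ± 0.0113 of the counts in MBZ and 4.00% ± 0.0132 in DMSO libraries (SD, n = 4 each), a range of 3.97% to 4.02% over the 8 libraries. The abundant genes that were higher in MBZ held 16.4% of the counts in each MBZ library, and 12.2% to 12.4% in DMSO libraries. Those that were lower in MBZ held 14.4% in each MBZ library, and 18.7% to 18.8% in DMSO libraries.

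**Figure D1:**
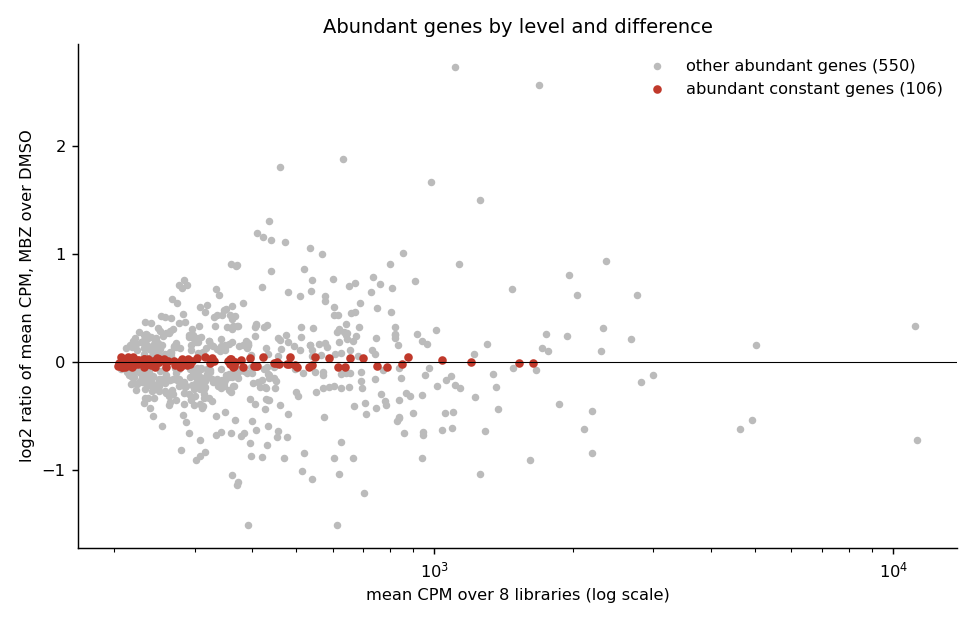
Each point is 1 of the 656 abundant genes, placed by its mean CPM over 8 libraries (log scale) and its log2 ratio of mean CPM, MBZ over DMSO. The 106 constant genes (red) form a band within 0.05 of 0 that thins out above 1000 CPM, while the other 550 genes (grey) reach from -1.515 to 2.734.

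Nearest to the upper limit, the ubiquitin protease gene UBP12 had a log2 ratio of 0.0485, the cytochrome c oxidase subunit gene AT4G37830 of 0.0481 and the clathrin heavy chain gene AT3G08530 of 0.0478. Just outside it lay SIP3 at 0.0507, AT2G35050 at 0.0516 and ADC2 at 0.0517. At the lower limit the superoxide dismutase gene CSD1 had -0.0486, GLYI4 -0.0482 and NAD-ME1 -0.0479. ATPQ at -0.0504, AT3G23600 at -0.0508 and AT5G08670 at -0.0519 fell just outside. At the level limit, ACS, GSL10 and PUM5 were the last to enter, with lowest libraries of 200.1, 200.2 and 200.9 CPM. TWN2, AT5G35530 and ATR2 met the ratio limit but had a lowest library of 199.3, 199.2 and 198.3 CPM. At both ratio limits, the genes inside and outside differed in log2 ratio by less than 0.0200, the median SD between replicates.

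Counts of the 106 genes ran from 7792 to 90733 in a library. The median within-group SD of log2 CPM was 0.0200, against 0.0186 for the higher and 0.0202 for the lower abundant genes and 0.0617 for all genes tested. Counting error alone would give a median of 0.0127. In the edgeR fit, which scales libraries with TMM factors, the standard error (SE) of a log2 fold change was 0.013 to 0.032 among the 106 genes. TMM scaling placed all MBZ-to-DMSO ratios 0.016 higher on the log2 scale than CPM, and upper-quartile scaling placed them 0.013 lower. Such a shift takes up a good part of the limit of 0.05. At an adjusted p of 0.05 the edgeR fit called 30 of the 106 genes (28.3%, against 66.5% of all genes tested), 28 higher and 2 lower. With upper-quartile factors it called 39, of which 3 were higher and 36 lower. Each scaling moves all genes alike, so these counts say nothing of the direction of single genes. Of the other 550 abundant genes, 549 were called (99.8%). The CPM ranges of the groups did not overlap for 28 of the 106 genes (26.4%, against 58.8% of all genes tested and 98.2% of the other abundant genes). The limit on the log2 ratio fixes these shares to a large part, and nothing is read from them.

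The most abundant member was HOG1 (AT4G13940), S-adenosyl-L-homocysteine hydrolase, which clears the by-product of methyl transfer reactions. It had 1655, 1611, 1624 and 1646 CPM in the MBZ libraries, against 1692, 1636, 1636 and 1636 CPM in the DMSO libraries. The groups overlapped, and DMSO replicate 1 stood above the other 7 libraries. RD19 (AT4G39090), a papain-like cysteine protease of the vacuole, had 1512, 1539, 1497 and 1529 CPM in MBZ and 1591, 1510.1, 1526 and 1512 CPM in DMSO libraries, again with overlap and with DMSO replicate 1 the highest. Per kilobase of gene, RD19 led the list at 997 ± 12.2 RPKM in MBZ and 1007 ± 25.2 RPKM in DMSO libraries (SD, n = 4 each, the authors' deposited RPKM). HOG1 followed at 826 RPKM in MBZ and 834 RPKM in DMSO libraries, and the cytosolic malate dehydrogenase gene c-NAD-MDH1 (AT1G04410) came next at 816 RPKM in MBZ and 816 RPKM in DMSO libraries. The malate dehydrogenase gene also had the smallest log2 ratio of all 106, -0.0004. Its CPM values were 1203, 1229, 1181 and 1203 in MBZ and 1207, 1197, 1213 and 1199.6 in DMSO libraries, and the DMSO values lay inside the range of the MBZ values.

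The 5 genes steadiest between replicates were not among the 10 of smallest difference. Annexin 1, ANNAT1 (AT1G35720), a calcium-dependent membrane-binding protein, had the lowest within-group SD, 0.0078 on the log2 scale. It had 841, 847, 842 and 846 CPM in MBZ and 856, 854, 863 and 849 CPM in DMSO libraries, so the groups did not overlap although they differed by a log2 ratio of -0.019. CESA1 (AT4G32410), a catalytic subunit of the cellulose synthase of growing walls, had 666, 656, 668 and 660.3 CPM in MBZ and 647, 643, 645 and 645 CPM in DMSO libraries. All 4 MBZ values of CESA1 stood above all 4 DMSO values. SAM-2, the tethering protein gene GC5 of the Golgi and AGO1, the slicer of small-RNA silencing, came next with SDs of 0.0096, 0.0098 and 0.0101. At the other end stood ATMG00020, an identifier of the mitochondrial genome, with an SD of 0.1459. Its values were 257, 292, 273 and 265 CPM in MBZ and 309, 268, 225 and 279.6 CPM in DMSO libraries. Its means were nearly equal (log2 ratio 0.0072), but the lowest and the highest of the 8 values were both DMSO libraries.

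**Figure D2:**
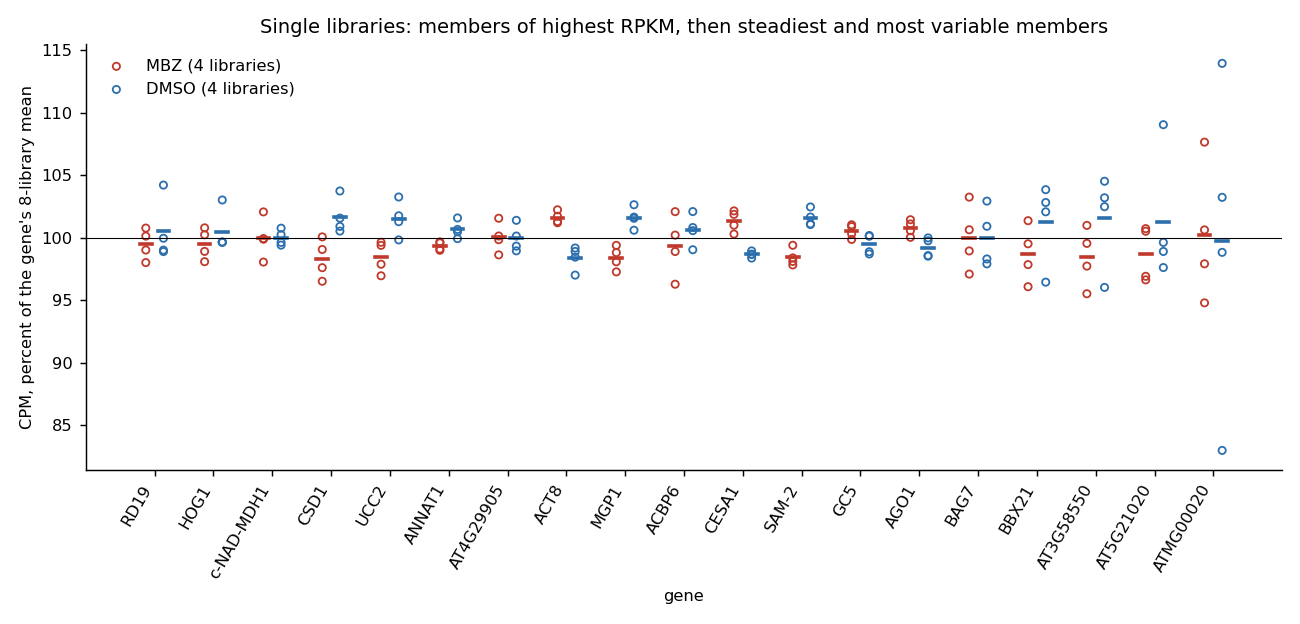
CPM in each library as a percent of the gene's 8-library mean (circles, 4 per group, MBZ left and DMSO right) with group means (bars), for 19 constant genes: those of highest RPKM, then the least and the most variable between replicates. Circles of the first 14 genes stay within about 5 percent of the mean, while ATMG00020 at the right spreads far more widely.

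Translation was represented by factors and by ribosomal proteins. LOS1 (AT1G56070), elongation factor 2, which moves the ribosome along the message, had 1072, 1036, 1022 and 1043 CPM in MBZ and 1030.4, 1031, 1029.6 and 1033 CPM in DMSO libraries. MBZ replicate 1 was the highest, and the other MBZ libraries lay on both sides of the DMSO values. PAB2 (AT4G34110), which coats poly(A) tails, had 776 ± 5.98 CPM in MBZ and 801 ± 5.23 CPM in DMSO libraries (SD, n = 4 each). The MBZ and DMSO values of PAB2 did not overlap. EIF4A1, the RNA helicase of initiation, had 355 ± 7.54 CPM in MBZ and 354 ± 5.25 CPM in DMSO libraries. EIF3A, the large subunit of initiation factor 3, had 227 ± 4.08 CPM in MBZ and 227 ± 2.91 CPM in DMSO libraries. In both initiation factors the groups overlapped. Of the 14 abundant genes of this class, which was drawn up by product name with earlier results known, 4 were constant, 8 higher and 2 lower beyond the limit, where 16.2% of all abundant genes were constant.

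Of the 49 abundant genes of cytosolic ribosomal proteins, 3 were constant (against 16.2% of all abundant genes), and the other 46 were lower in MBZ beyond the limit. The difference in constant share between the classes was not tested. The median of the 49 log2 ratios was -0.185, against -0.037 for all 656 abundant genes. Among all 202 ribosomal protein genes tested, 162 were called lower (80.2%, against 33.6% of all genes tested) and 12 higher (5.94%, against 32.9%), with a median log2 fold change of -0.149, against 0.000 over all genes tested. The 3 constant ones all belong to the small subunit. AT2G41840, which RefSeq places in the S5 family and which codes for protein S2 of the cytosolic ribosome, had 456, 449, 439 and 470.4 CPM in MBZ and 459, 451, 458 and 447 CPM in DMSO libraries. AT4G34670, of protein S3a, had 459.5, 447, 442 and 449 CPM in MBZ and 456, 449, 450.4 and 451 CPM in DMSO libraries. EMB3010 (AT5G10360), of protein S6, the subunit phosphorylated by S6 kinase, had 357, 356, 346 and 361 CPM in MBZ and 367, 359, 359 and 355 CPM in DMSO libraries. In each of the 3 the groups overlapped.

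Arabidopsis carries several copies of each ribosomal protein gene. The sister copies of S3a and S6 lay outside the limit on the lower side, and the 2 sisters of S2 with counts on the higher side. AT3G04840, the other S3a copy, had 285, 277, 278 and 286 CPM in MBZ and 336, 335, 344 and 329.5 CPM in DMSO libraries. All its MBZ values lay below all its DMSO values, and the log2 fold change was -0.239 ± 0.016 (SE; edgeR adjusted p = 1.47e-24). RPS6 (AT4G31700), the other S6 copy, had 290.2 ± 6.099 CPM in MBZ and 341 ± 1.07 CPM in DMSO libraries, with a log2 fold change of -0.218 ± 0.016 (edgeR adjusted p = 2.18e-22). The count of one copy divided by that of the other in the same library does not depend on library scaling. EMB3010 over RPS6 gave 1.23, 1.24, 1.22 and 1.21 in the MBZ libraries, against 1.08, 1.05, 1.05 and 1.03 in the DMSO libraries. AT4G34670 over AT3G04840 gave 1.61, 1.61, 1.59 and 1.57 in the MBZ libraries, against 1.36, 1.34, 1.31 and 1.37 in the DMSO libraries. Both ratios were higher in every MBZ library than in any DMSO library. With one copy held near 0 by the rule, this restates the lower level of its sister and is no separate support. In the S2 family the constant copy took most of the counts. Its sister XW6 had 29.7 ± 0.86 CPM in MBZ and 28.3 ± 1.003 CPM in DMSO libraries, with overlap (log2 fold change 0.082 ± 0.036, edgeR adjusted p = 0.0354). Its sister AT3G57490 had 19.8 ± 0.827 CPM in MBZ and 17.97 ± 1.06 CPM in DMSO libraries, without overlap (log2 fold change 0.151 ± 0.045, edgeR adjusted p = 0.00198). Both were called higher in MBZ, unlike the sisters of S3a and S6. AT2G41840 over either sister was lower in every MBZ library than in any DMSO library, for XW6 by a narrow gap. Another 3 annotated S2 copies (AT1G58684, AT1G58983 and AT1G59359) were listed at 0 in all 8 libraries. Each was 82.3% identical to AT2G41840 in coding sequence, and identity among the sisters was not computed. Whether the values of 0 reflect absent transcripts or reads not assigned to these copies was not tested, so the share of the constant copy is that of the listed counts. Coding sequences of the S3a pair were 85.2% identical and those of the S6 pair 84.7%, with longest identical stretches of 35 and 37 bases, so reads could in principle be shared between copies. How the authors' counting treated such reads is not given in the sources used here.

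The promoters of these pairs are shown because the copies code for the same ribosomal protein and only 1 of each pair was constant. Each line gives the 100 bases before the first base of the gene in the RefSeq annotation (assembly TAIR10.1), 5′ to 3′ on the gene's strand. Capitals mark matches on either strand to TGGGCC or TGGGCT, the core letters of site II elements that are common in ribosomal protein promoters, or to TATAAA. EMB3010 lies at chr5:3260255-3260354 (minus strand), RPS6 at chr4:15347805-15347904 (minus strand), AT4G34670 at chr4:16548500-16548599 (plus strand) and AT3G04840 at chr3:1329471-1329570 (plus strand).
EMB3010: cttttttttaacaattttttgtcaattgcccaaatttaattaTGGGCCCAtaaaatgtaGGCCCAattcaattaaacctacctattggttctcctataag
RPS6: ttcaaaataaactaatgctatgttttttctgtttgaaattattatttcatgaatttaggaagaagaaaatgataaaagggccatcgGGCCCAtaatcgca
AT4G34670: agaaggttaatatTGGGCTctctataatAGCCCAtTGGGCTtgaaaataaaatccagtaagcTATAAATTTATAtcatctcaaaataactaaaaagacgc
AT3G04840: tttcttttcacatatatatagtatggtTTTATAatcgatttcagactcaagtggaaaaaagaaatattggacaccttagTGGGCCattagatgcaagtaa
The constant copy held 3 site II matches in both pairs, while its sister held 1. In EMB3010 the matches started 58, 56 and 41 bases before the gene, the first pair overlapping in the palindrome TGGGCCCA, and in RPS6 the match started 14 bases before it. In AT4G34670 they started 87, 72 and 65 bases before the gene and in AT3G04840 21 bases before it. With 2 pairs this is a description of 4 promoters, and a match is not evidence that a factor binds there.

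Over a longer window, from 250 bases before to 50 bases after the gene start, promoters were read for all constant genes but the mitochondrial one. TGGGCC was in 21 of these 105 promoters, against 15.5% of all 27443 promoters, 15.4% of the higher and 28.1% of the lower abundant genes. For TGGGCT the shares were 14.3% of the constant genes, 14.2% of all promoters, 9.58% of the higher and 25.2% of the lower abundant genes. Without the ribosomal protein genes, the lower abundant genes had TGGGCC in 18.5% and TGGGCT in 17.3%. The telo box AAACCCTA, another element of ribosomal protein promoters, was in 7.62% of the constant genes, 3.75% of the higher and 11.1% of the lower abundant genes and 6.22% of all promoters, and in 51.0% of the abundant ribosomal protein genes. TATAAA was in 58.1% of the constant genes, 57.9% of the higher and 58.5% of the lower abundant genes and 52.1% of all promoters. The G box CACGTG was in 9.52% of the constant genes, 8.33% of the higher and 9.80% of the lower abundant genes and 7.68% of all promoters. GCCGCC, the core of the element bound by ethylene response factors, was in 0 of the 105 promoters. It was in 13 of 240 promoters of higher (5.42%) and 7 of 306 of lower abundant genes (2.29%), and in 2.57% of all promoters. Differences in motif share between the sets were not tested. Both strands were searched, and TGGGCC can overlap its own reverse complement.

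RNA-binding and RNA-processing proteins supplied 6 constant genes out of 16 abundant ones (against 16.2% of all abundant genes), with 8 higher and 2 lower. AGO1 (AT1G48410) had 285.4, 282.9, 281.4 and 284.4 CPM in MBZ and 277.3, 277.2, 281.3 and 280.7 CPM in DMSO libraries, with no overlap but a gap between the groups of less than 1 CPM. Tudor1 (AT5G07350), a nuclease-domain protein of stress granules, had 242 ± 1.73 CPM in MBZ and 250.2 ± 5.15 CPM in DMSO libraries, and here the groups did not overlap either. The others were the pumilio gene PUM5, the CCCH zinc finger gene AT3G51950, AT4G36980, annotated as a serine/arginine-rich protein, and AT4G30010, annotated as an RNA helicase, with means over the 8 libraries between 207 and 220 CPM. The coding sequence of AT4G30010 has only 273 bases, and its place in this class rests on the product name alone.

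Vesicle traffic was the class with the largest constant share of the 18 drawn up, 10 of 20 abundant genes (against 16.2% of all abundant genes), with 5 higher and 5 lower. The class list was made by product name with earlier results known, so this share is a description. Clathrin, the coat of endocytic and trans-Golgi vesicles, was represented by both heavy chain genes. AT3G08530 had 491, 487, 502 and 490.4 CPM in MBZ and 471, 482, 479 and 475 CPM in DMSO libraries, without overlap. AT3G11130 had 484, 474, 483 and 465 CPM in MBZ and 489, 487, 486 and 477 CPM in DMSO libraries, with overlap. Their sum was 969.5 ± 13.5 CPM in MBZ and 962 ± 7.56 CPM in DMSO libraries. The coding sequences were 92.1% identical with a longest identical stretch of 89 bases, so the split between the copies is less certain than the sum. The light chain gene AT2G20760 had 236 ± 1.69 CPM in MBZ and 239.6 ± 2.69 CPM in DMSO libraries. The groups overlapped. Its less abundant copy CLC2 had 137 ± 2.34 CPM in MBZ and 138 ± 4.32 CPM in DMSO libraries, with a log2 fold change of 0.008 ± 0.020 (edgeR adjusted p = 0.757). The least abundant copy, AT3G51890, rose to 33.1 ± 1.17 CPM in MBZ, against 22.8 ± 1.28 CPM in DMSO libraries (log2 fold change 0.545 ± 0.037, edgeR adjusted p = 4.68e-24).

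The remaining traffic genes cover several steps. SYTA, a synaptotagmin of contact sites between endoplasmic reticulum and plasma membrane, had 259 ± 2.68 CPM in MBZ and 257 ± 3.35 CPM in DMSO libraries. RHD3, a GTPase that shapes the endoplasmic reticulum, had 245 ± 2.12 CPM in MBZ and 243 ± 2.24 CPM in DMSO libraries. VSR7 had a spread of less than 9 CPM over the 8 libraries. It is a receptor that sorts cargo to the vacuole, and it averaged 222 ± 1.98 CPM in MBZ and 223 ± 3.66 CPM in DMSO libraries. GDI2, which recycles Rab GTPases from membranes, had 250.2 ± 1.65 CPM in MBZ and 246 ± 2.68 CPM in DMSO libraries. GC5, the ARF exchange factor gene ATMIN7 and the ENTH domain gene AT2G43160 completed the group. In these 7 genes the groups overlapped, and the last 3 had log2 ratios of 0.015, 0.034 and 0.027.

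**Figure D3:**
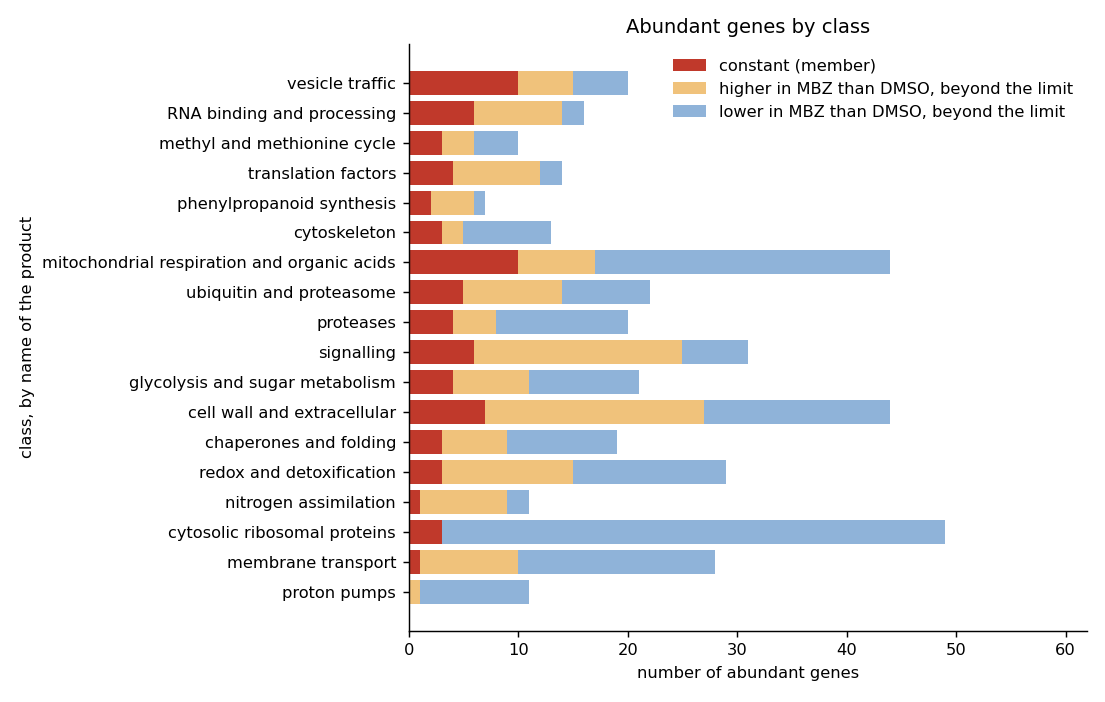
Number of abundant genes in each class, split into constant genes (red), genes higher in MBZ (yellow) and genes lower in MBZ (blue) beyond the log2 ratio limit of 0.05; 247 genes outside the 18 classes are not drawn. Vesicle traffic has 10 constant genes of 20, cytosolic ribosomal proteins 3 of 49, membrane transport 1 of 28 and proton pumps 0 of 11. Of all abundant genes, 16.2% were constant.

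Of the 13 abundant cytoskeletal genes, 3 were constant (23.1%, against 16.2% of all abundant genes), 2 higher and 8 lower. ACT8 (AT1G49240), an actin of vegetative tissue, had 894, 889, 885 and 886 CPM in MBZ and 861, 865, 848 and 867 CPM in DMSO libraries. All MBZ values lay above all DMSO values, and its log2 ratio of 0.046 was near the limit. The other vegetative actins were lower in MBZ. ACT2 had 915 ± 3.87 CPM in MBZ and 996 ± 4.83 CPM in DMSO libraries (log2 fold change -0.105 ± 0.013, edgeR adjusted p = 7.09e-12) and ACT7 had 336 ± 4.47 CPM in MBZ and 393 ± 1.41 CPM in DMSO libraries (log2 fold change -0.211 ± 0.015, edgeR adjusted p = 8.44e-23). ACT8 over ACT2 gave 0.975, 0.967, 0.972 and 0.968 in the MBZ libraries, against 0.859, 0.868, 0.851 and 0.876 in the DMSO libraries, free of library scaling. The coding sequences of ACT8 and ACT2 were 91.0% identical. The other constant members were IQD14, a calmodulin-binding IQ-domain protein, with 405 ± 9.02 CPM in MBZ and 415 ± 5.77 CPM in DMSO libraries, and KLCR1, a protein related to kinesin light chains, with 222 ± 3.39 CPM in MBZ and 224 ± 4.89 CPM in DMSO libraries. In both the groups overlapped.

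In the methyl cycle, HOG1 was constant while its minor copy was not. SAHH2 had 256, 255, 257 and 257 CPM in MBZ and 157, 151, 153 and 145 CPM in DMSO libraries (log2 fold change 0.774 ± 0.018, edgeR adjusted p = 1e-57). HOG1 over SAHH2 gave 6.46, 6.31, 6.32 and 6.41 in the MBZ libraries, against 10.8, 10.8, 10.7 and 11.3 in the DMSO libraries. The 4 S-adenosylmethionine synthetase genes, which make the methyl donor and the precursor of ethylene, were split in direction. SAM-2 was constant at 526 ± 3.66 CPM in MBZ and 542 ± 3.48 CPM in DMSO libraries. Its MBZ values all lay below its DMSO values. SAM1 fell to 733 CPM in MBZ, against 937 CPM in DMSO libraries (log2 fold change -0.338 ± 0.013, edgeR adjusted p = 1.93e-40). MTO3 rose to 451 CPM in MBZ, against 360.5 CPM in DMSO libraries (log2 fold change 0.341 ± 0.015, edgeR adjusted p = 5.01e-37), and MAT3 to 564, against 507 CPM (log2 fold change 0.170 ± 0.014, edgeR adjusted p = 8.09e-19). Summed over the 4 genes, the level was 2274 ± 15.4 CPM in MBZ and 2347 ± 4.44 CPM in DMSO libraries. MTN1, which recycles the by-product of ethylene and nicotianamine synthesis, was the other constant gene of this class, with 234 ± 2.55 CPM in MBZ and 231 ± 2.51 CPM in DMSO libraries.

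Mitochondrial and organic acid genes gave 10 constant members of 44 abundant ones (against 16.2% of all abundant genes), beside 7 higher and 27 lower. PPC3 (AT3G14940), the phosphoenolpyruvate carboxylase that feeds carbon into organic acids in roots, had 712, 715, 705 and 701 CPM in MBZ and 687, 694, 697 and 689.7 CPM in DMSO libraries, without overlap. Its sisters PPC1 and PPC2 were both lower, with log2 fold changes of -0.416 ± 0.016 (edgeR adjusted p = 1.21e-41) and -0.450 ± 0.029 (edgeR adjusted p = 2.87e-25). Of 3 adjacent ATP synthase beta subunit genes, AT5G08680 was constant at 332 ± 4.45 CPM in MBZ and 331 ± 0.588 CPM in DMSO libraries. AT5G08690 was lower (log2 fold change -0.161 ± 0.015, edgeR adjusted p = 4.39e-17), and AT5G08670 lay just outside the limit. Their coding sequences were 90.5% to 91.4% identical to that of AT5G08680, with identical stretches of up to 128 bases, so the split among the 3 is uncertain. MGP1, an ATP synthase subunit, the phosphate carrier gene PHT3;1, SDH5 of complex II, NAD-ME1, VDAC2 of the outer membrane and AT4G37830 were also constant, with means over the 8 libraries from 214 to 501 CPM.

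Sugar metabolism gave 4 constant genes of 21 abundant ones, the cell wall 7 of 44, phenylpropanoid synthesis 2 of 7 and nitrogen assimilation 1 of 11. The invertase family gene AT1G62660 had 739 ± 7.296 CPM in MBZ and 759.6 ± 8.99 CPM in DMSO libraries. PDE345, an aldolase of plastids, had 399 ± 6.86 CPM in MBZ and 411 ± 8.55 CPM in DMSO libraries. The groups were apart in the first gene and overlapped in the second. The trehalose phosphate synthase family gene TPS9 and the sugar kinase gene AT2G31390 were the others. Among 5 cellulose synthase genes of primary walls above 50 CPM, CESA1 was constant, and CEV1, CESA6, CESA2 and CESA5 were higher by 0.10 ± 0.014, 0.144 ± 0.015, 0.141 ± 0.018 and 0.321 ± 0.026 on the log2 scale (largest edgeR adjusted p of the 4 = 3.73e-10). In the edgeR fit CESA1 itself stood at 0.055 ± 0.014. UCC2, a copper-binding uclacyanin of the wall that takes part in the Casparian strip region, had 635, 636, 619 and 625 CPM in MBZ and 659, 649.7, 647 and 637 CPM in DMSO libraries, with a gap of about 1 CPM between the groups. BGAL1, a beta-galactosidase, RGP1, which supplies arabinose for wall polymers, the peroxidase gene RCI3 and the callose synthase family genes GSL03 and GSL10 were the other constant wall genes. PAL2, at the entry of phenylpropanoid synthesis, had 400.2 ± 4.25 CPM in MBZ and 390.2 ± 3.44 CPM in DMSO libraries. Its sister PAL1 was higher (log2 fold change 0.249 ± 0.014, edgeR adjusted p = 1.02e-28) and PAL4 lower (log2 fold change -0.842 ± 0.025, edgeR adjusted p = 3.82e-50). C4H, the next enzyme of the pathway and a gene without a close copy, had 361 ± 5.05 CPM in MBZ and 354 ± 2.31 CPM in DMSO libraries, and its groups overlapped. The cytosolic glutamine synthetase gene GSR 1 (AT5G37600) had 363 ± 4.67 CPM in MBZ and 366 ± 3.23 CPM in DMSO libraries, while the main copy GSR2 (AT1G66200) rose to 3339.6 ± 20.8 CPM in MBZ, against 2174 ± 15.8 CPM in DMSO libraries (log2 fold change 0.636 ± 0.011, edgeR adjusted p = 1.08e-67).

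These families were picked by hand after the values were seen, from constant genes that have annotated copies. Not every such gene was taken, GSL03 and UBQ11 being among those left out, and the copies listed for a family may be incomplete. They comprise 21 families with 66 copies, of which 23 were constant. Of 37 other copies that passed the count filter, 16 were called higher and 17 lower. Genes above and below 200 CPM are among the 37. The calls make 33 of 37 (89.2%), against 66.5% of all genes tested and 88.3% of the abundant genes. A copy above 200 CPM that was not constant had to lie outside the limit, so this count is fixed in part by the rule. Clathrin heavy chain and the pair UBP12 and UBP13 were the 2 families with all listed copies constant. In 9 families the summed CPM of all listed copies had a log2 ratio within 0.05 of 0. Whether copies differ from each other in response was described by the within-library ratios above and not tested. Where a constant copy is set against a copy outside the limit, the separation of such a ratio follows in large part from the rule.

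**Figure D4:**
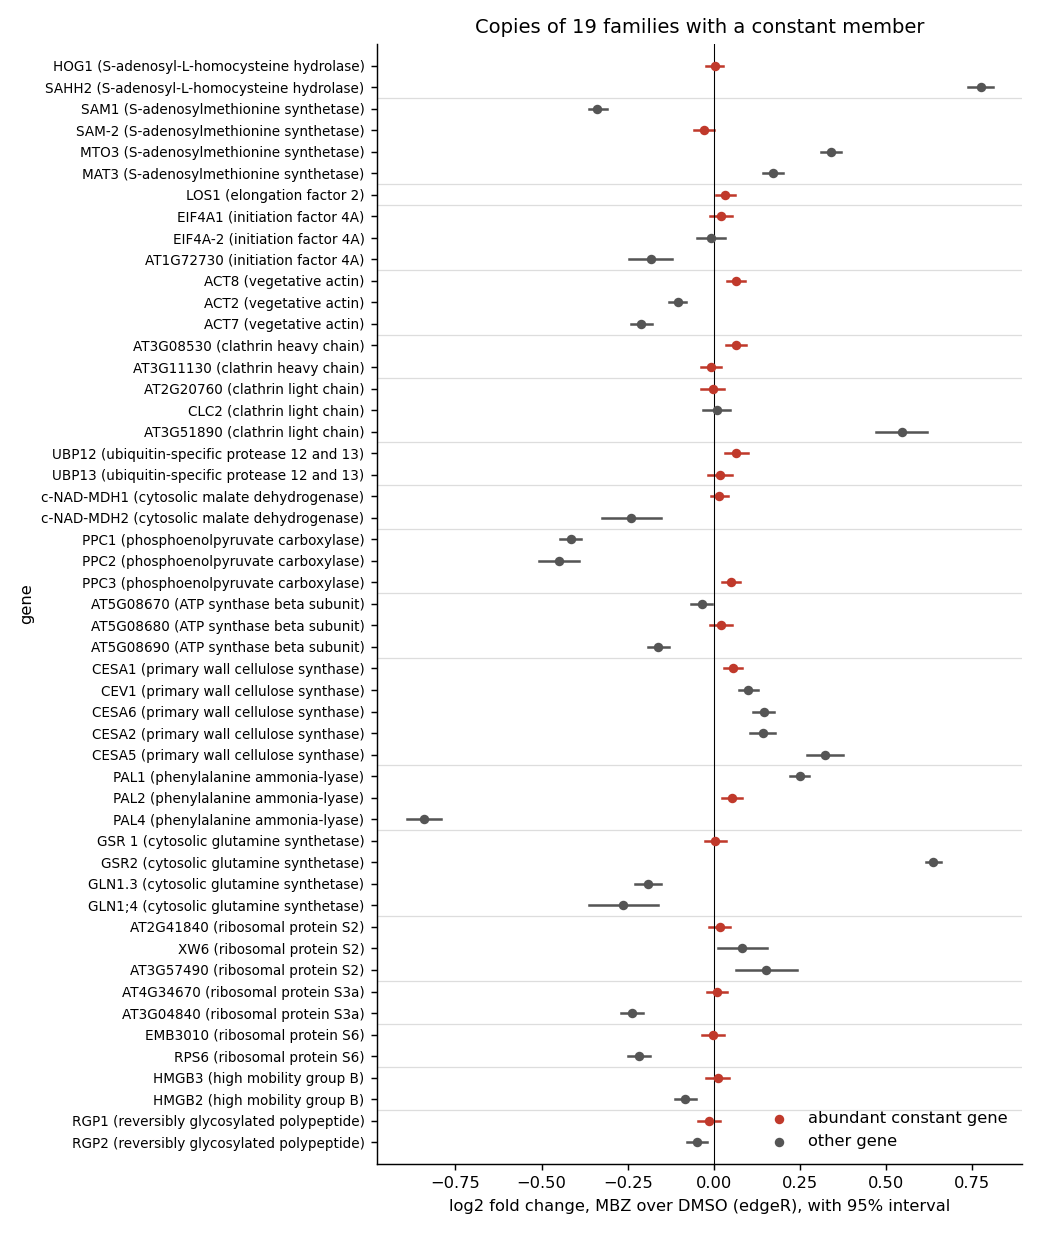
edgeR log2 fold change, MBZ over DMSO, with its 95% interval for the 51 copies above 10 CPM in both groups of 19 of the families; red marks constant genes, and grey lines part the families. Red points sit within 0.1 of 0, and grey points of the same family lie on either side, from PAL4 at the left to SAHH2 at the right.

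Protein turnover contributed 5 of 22 abundant ubiquitin and proteasome genes and 4 of 20 protease genes. PHO2 (AT2G33770), the ubiquitin-conjugating enzyme that limits phosphate uptake, had 607, 585, 595 and 599.9 CPM in MBZ and 591, 574, 580.0 and 583 CPM in DMSO libraries. The groups overlapped, through a low MBZ replicate 2 and a high DMSO replicate 1. UBP12 had 223 ± 2.65 CPM in MBZ and 216 ± 3.67 CPM in DMSO libraries and UBP13 had 209.8 ± 3.06 CPM in MBZ and 209.7 ± 3.84 CPM in DMSO libraries, and their coding sequences were 86.1% identical. The groups were apart in UBP12 only. UBC1, a ubiquitin-conjugating enzyme, had 205 ± 0.922 CPM in MBZ and 211 ± 5.52 CPM in DMSO libraries. The vacuolar processing enzyme gene GAMMA-VPE had 250.1 ± 4.37 CPM in MBZ and 251 ± 2.01 CPM in DMSO libraries, the aminopeptidase gene APM1 234 ± 3.63 CPM in MBZ and 231 ± 1.89 CPM in DMSO libraries and the subtilase gene AT2G05920 274 ± 3.96 CPM in MBZ and 283 ± 4.33 CPM in DMSO libraries. In UBC1 and these 3 protease genes the groups overlapped.

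Calcium and phosphorylation signalling gave 6 of 31 abundant genes (19.4%, against 16.2% of all abundant genes), with 19 higher and 6 lower. Besides ANNAT1 these were AT2G38800, annotated as a calmodulin-binding protein, with 535 ± 3.85 CPM in MBZ and 545 ± 9.88 CPM in DMSO libraries, the 14-3-3 gene GRF10, the kinase genes CDPK6 and CKL13 and the EF hand gene AT4G32060. CKL13 had 219, 216, 219 and 218 CPM in MBZ and 217, 219.7, 219 and 217 CPM in DMSO libraries, a spread of less than 5 CPM over all 8. Redox metabolism gave 3 of 29, of which CSD1, the cytosolic copper/zinc superoxide dismutase, had 607 ± 9.66 CPM in MBZ and 627 ± 8.84 CPM in DMSO libraries. GSH1, the first enzyme of glutathione synthesis, had 491 ± 3.83 CPM in MBZ and 503 ± 4.03 CPM in DMSO libraries. In both the MBZ values all lay below the DMSO values. The glyoxalase family gene GLYI4 was the other. Chaperones gave 3 of 19, among them BAG7, a co-chaperone of the endoplasmic reticulum, with 231 ± 6.05 CPM in MBZ and 231 ± 5.45 CPM in DMSO libraries, the disulfide isomerase gene PDIL1-4 and AT5G26360, a subunit of the cytosolic chaperonin. Membrane transport gave 1 of 28, HMA4, the zinc pump that loads the xylem, with 403 ± 8.77 CPM in MBZ and 414 ± 3.78 CPM in DMSO libraries. Proton pumps gave 0 of 11, with 10 lower and 1 higher beyond the limit. Constant shares of redox, chaperone and membrane transport genes were 10.3%, 15.8% and 3.57%, against 16.2% of all abundant genes.

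The remaining 31 constant genes were in none of the classes. Lipid enzymes among them were ACC1, the cytosolic acetyl-CoA carboxylase, the acetyl-CoA synthetase gene ACS and LACS4, which activates long-chain fatty acids. EDA9 makes serine by the phosphorylated route, PAP26 is an acid phosphatase and ATX1 a copper chaperone. The genes AT3G58550, annotated as a lipid transfer protein, and AT5G21020, uncharacterized, were among the 5 most variable between replicates. AT1G22930, annotated as a T-complex protein, had 445 ± 5.75 CPM in MBZ and 449 ± 3.37 CPM in DMSO libraries and AT4G02480, an AAA-type ATPase, had 429 ± 6.23 CPM in MBZ and 416 ± 2.51 CPM in DMSO libraries. COR413-PM1, a cold-regulated plasma membrane protein, had 358, 374, 366 and 368 CPM in MBZ and 374, 365, 367 and 362 CPM in DMSO libraries, with full overlap. AT4G29905, an uncharacterized protein with a coding sequence of 204 bases, had 365 ± 4.39 CPM in MBZ and 365 ± 3.94 CPM in DMSO libraries and, per length, 517 RPKM in MBZ and 516 RPKM in DMSO libraries, which placed it among the 10 highest of the 106. ACBP6, an acyl-CoA carrier, had 283 ± 6.95 CPM in MBZ and 287 ± 3.57 CPM in DMSO libraries. The transcription factor genes BBX21 and RAP2.4 had within-group SDs of 0.0411 and 0.0314 that exceeded the median of 0.0200. HMGB3, a chromatin protein, had 249 ± 2.93 CPM in MBZ and 250.4 ± 3.55 CPM in DMSO libraries, while its sister HMGB2 was lower (log2 fold change -0.084 ± 0.015, edgeR adjusted p = 1.12e-06).

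Genes in common use as RT-PCR references were examined as a list of 31 drawn from general knowledge, of which 30 passed the count filter. Of the 27 tested list genes that were not abundant constant genes, the edgeR test called 6 higher and 12 lower, and 9 were not called. Over all genes tested, 32.9% were called higher and 33.6% lower. The 3 constant genes of the list are left out of these counts, since the rule limited their ratios. The constant ones were ACT8, UBQ11 and EIF4A1. UBQ11, a polyubiquitin gene whose repeats occur in other ubiquitin genes, had 324 ± 2.92 CPM in MBZ and 326 ± 3.93 CPM in DMSO libraries. Another 9 list genes were within the ratio limit but below 200 CPM in some library, among them PP2AA3 with 75.3 ± 0.983 CPM in MBZ and 75.7 ± 1.096 CPM in DMSO libraries, SAND (AT2G28390) with 66.7 ± 1.12 CPM in MBZ and 66.3 ± 1.61 CPM in DMSO libraries, YLS8 with 93.8 ± 2. CPM in MBZ and 95.5 ± 4.14 CPM in DMSO libraries and UBC9 with 187 ± 1.62 CPM in MBZ and 184 ± 1.33 CPM in DMSO libraries. Several widely used references were not constant. GAPC1, a glycolytic dehydrogenase, had 1123, 1133, 1109 and 1139 CPM in MBZ and 2138, 2103, 2114 and 2095 CPM in DMSO libraries, a log2 fold change of -0.892 ± 0.012 (edgeR adjusted p = 2.81e-76). UBQ10 was higher, with a log2 fold change of 0.118 ± 0.013 (edgeR adjusted p = 4.74e-14), and TIP41L (AT4G34270) had the highest log2 fold change of the list, 0.186 ± 0.029 (edgeR adjusted p = 2.61e-08). EF1A-4 (AT5G60390) was lower, with a log2 fold change of -0.209 ± 0.013 (edgeR adjusted p = 8.23e-26), and the 4 EF1A copies are nearly identical, so their separate values are uncertain. The tubulin genes of the list, TUB4 and TUA5, were lower, with log2 fold changes of -0.089 ± 0.015 (edgeR adjusted p = 1.68e-07) and -0.197 ± 0.019 (edgeR adjusted p = 1.63e-16). Apart from GAPC1, list genes had log2 fold changes between -0.228 (GAPC2) and 0.186.

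**Figure D5:**
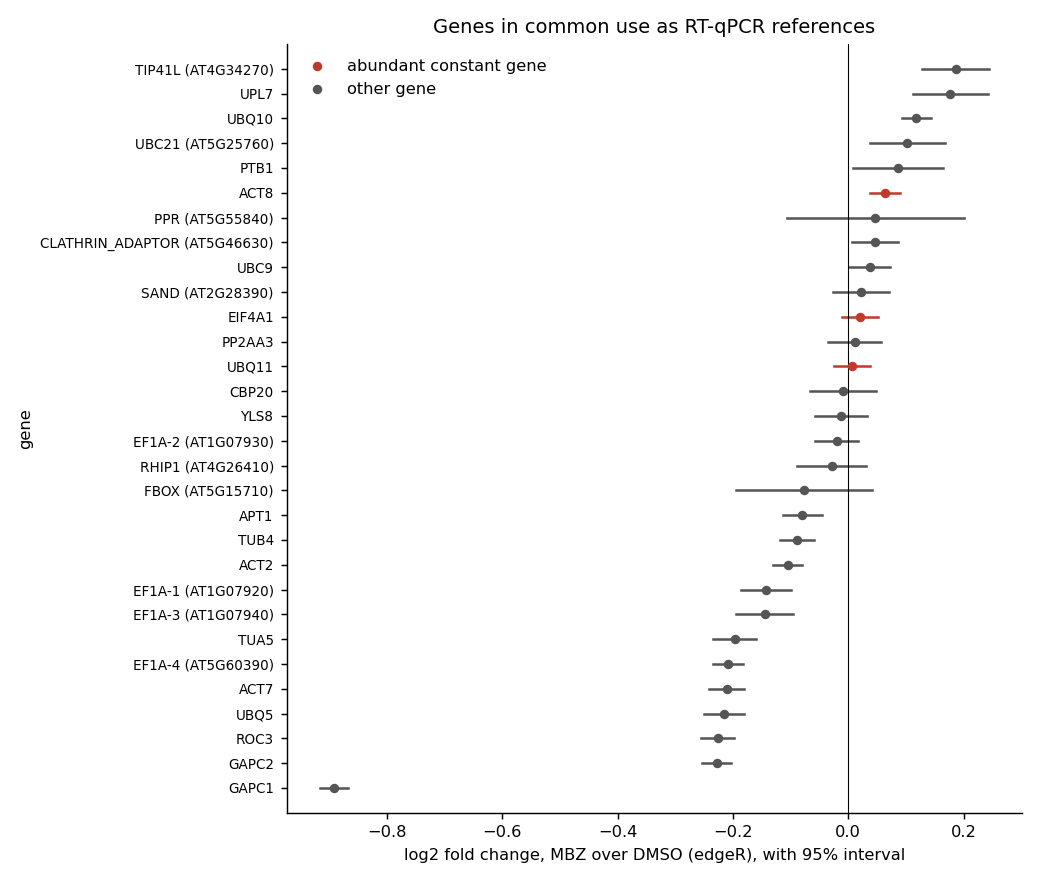
edgeR log2 fold change, MBZ over DMSO, with its 95% interval for the 30 reference genes tested, ordered from higher to lower in MBZ; red marks the 3 constant genes. ACT8, EIF4A1 and UBQ11 lie within 0.1 of 0, most genes lie between -0.25 and 0.2, and GAPC1 stands apart at -0.892.

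Features that the rule did not use directly were compared as descriptions. Constant genes had long coding sequences, with a median of 1518 bases, against 1321 for the higher and 1083 for the lower abundant genes and 1164 for all genes tested. The lower group had 1173 without its ribosomal protein genes. A coding sequence of at least 2100 bases was found in 29.5% of the constant, 24.2% of the higher and 12.7% of the lower abundant genes and in 15.4% of all genes tested. The median number of introns was 6 in the constant, 5 in the higher and 4 in the lower abundant genes, and 3 in all genes tested. Because CPM is not scaled by length, long genes reach 200 CPM at fewer transcripts. This limit was the same for the constant, higher and lower abundant genes. Their median levels differed, at 283 CPM for the constant, 371 CPM for the higher and 341 CPM for the lower genes. The part of level in the difference in length was not tested. AT2G45540, with a coding sequence of 9006 bases, had 25.2 RPKM, the lowest of the 105 members in the RPKM table, against 1002 RPKM for RD19. The members were spread over all 5 nuclear chromosomes, with 26, 20, 15, 27 and 17 on chromosomes 1 to 5, and ATMG00020 on the mitochondrial genome.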

How the data were processed

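RNA-seq of root tissue was deposited as 2 tables with 8 columns, 4 libraries each for MBZ and DMSO. The authors deposited raw read counts for 33602 genes, and RPKM values (reads scaled to gene length and library size) for 17872 of them. The submitters' processing notes list STAR 2.7.0a, edgeR 3.36.0 and the build TAIR10, without their roles. Counting program, annotation and strand setting are not given in the sources used here, so reads of overlapping and antisense genes may not be told apart. Totals were 38042437 to 54818801 counts. Gene names, coding lengths and promoters came from RefSeq on TAIR10.1, where 32835 IDs matched, and no value depends on coordinates of the files.

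CPM was computed from counts and column totals. Differences were tested with edgeR 4.0.16 (R 4.3.3) by the quasi-likelihood test with TMM factors, filterByExpr, the group as the only term and Benjamini-Hochberg adjustment over 20867 genes, after a check on simulated counts. Standard errors came from the Fisher information times the quasi-dispersion, and intervals cover 95%. The spread between libraries and the depth set the precision, and counting error is only part of it. Same-numbered libraries did not deviate together. Alternatives were DESeq2 1.42.0, other scaling factors, no filter, other limits, the replicate block and leaving out each library.

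The constant genes, classes, families and reference genes were chosen with earlier results of these data known. Genes were named by fixed criteria: the 10 of highest RPKM, the 10 of smallest log2 ratio, the 2 of highest CPM in each class, the 5 least and 5 most variable, the 5 of smallest p, the 3 on each side of each limit, actins and tubulins, and the reference list. Other copies and constant genes named besides were chosen after their values were seen. Results for 2 genes are not reported here.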

Additional observations from a re-analysis of the deposited data

Results flagged for a closer look

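Among 196 groups of 4 libraries examined (the named genes in MBZ and in DMSO), 10 had a library whose gap to its nearest neighbour, as a share of the group's range, passed Dixon's critical value for 4 values. Chance flags about 1 in 20, which is 9.8 of 196. No cause was tested for any of them.

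Among the constant genes, HOG1 had 1691.7 CPM in DMSO replicate 1, against 1636.1 to 1636.4 CPM in the other DMSO libraries. PAL2 had 406.55 CPM in MBZ replicate 4, against 397.5 to 398.51 CPM in the other MBZ libraries. PAL2 also had 395.37 CPM in DMSO replicate 1, against 388.0 to 388.97 CPM in the other DMSO libraries. NAD-ME1 had 234.55 CPM in MBZ replicate 1, against 226.06 to 227.48 CPM in the rest. AT4G37830 had 204.27 CPM in DMSO replicate 1, against 212.43 to 213.41 CPM in the rest.

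Among the genes just outside the limit, SIP3 had 561.3 CPM in MBZ replicate 4, against 545.98 to 548.16 CPM in the rest. ADC2 had 685.83 CPM in MBZ replicate 3, against 694.83 to 695.87 CPM. Among the reference genes, ROC3 had 588.45 CPM in MBZ replicate 4, against 568.14 to 570.31 CPM. TUA5 had 142.49 CPM in MBZ replicate 3, against 145.47 to 145.92 CPM. YLS8 had 101.76 CPM in DMSO replicate 3, against 93.394 to 93.576 CPM in the other DMSO libraries.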

How the results depend on the processing

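The number of constant genes moved with the limits: 62 at a log2 ratio of 0.03, 189 at 0.10, 336 at a level of 100 CPM and 26 at 400 CPM, against 106. Their share of counts was 2.30%, 7.45%, 7.26% and 1.82% in the same settings, against 3.99%. Other scalings gave 91 to 113 genes, and leaving out each library gave 103 to 108. Of the 106 genes, 69 met the limits under all 3 other scalings and 82 in all 8 runs without a library. Their median SD was 0.0180 to 0.0207 without single libraries, against 0.0200.

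With the replicate block, edgeR called 13786 genes, against 13877 without it, and 27 of the constant genes, against 30. Same-numbered libraries correlated at -0.0433 to 0.00579, so the numbers were not taken as pairs. Counts over all genes were 13022 with DESeq2 and 14176 without the filter. The calls among the 106 genes were 22 to 34 without single libraries and 39 with upper-quartile factors. Of 806 settings for 62 tested reference genes and copies, 760 kept call and direction, 25 lost the call and 5 gained it. In 16, the log2 fold change of 8 genes turned sign or came to 0, none of them called. With upper-quartile factors PP2AA3 came to -0.018, SAND (AT2G28390) to -0.007 and CLC2 to -0.022. Without single libraries, log2 fold changes ran from -0.024 to 0.018 for YLS8, from -0.028 to 0.009 for CBP20, from -0.02 to 0.003 for EIF4A-2, from -0.008 to 0.023 for CLC2, from -0.153 to 0.133 for PAL3 and from -0.348 to 0.021 for GLN1;5. Of 174 ratios of 58 constant genes under the 3 other scalings, 54 moved by more than the gene's own SD. Over all genes tested, most of them at lower counts, the median SD was 0.0617, so a log2 ratio within 0.05 says less for a rare gene than for these.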
